A study of Mus musculus with 6 samples.

Results

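The Wnt ligands, their Frizzled receptors, their secreted antagonists and 3 genes at the nuclear end of the pathway were followed in mouse hypothalamus at 2 ages. Members were taken by gene symbol: names starting with Wnt, Fzd, Sfrp or Dkk and a digit, and Frzb, Wif1, Lef1, Tcf7l2 and Axin2. This gave 42 of the 18228 genes in the deposited table, made up of 19 ligands, 10 receptors, 10 secreted antagonists and 3 nuclear and feedback genes. RNA was sequenced from hypothalamus of 3 mice aged 22 months (aged) and 3 mice aged 12 weeks (young), drawn from 5 mice per age that had been through a behavioural experiment. All animals were kept on a regular light cycle with free food and water, and no treatment, allele or transgene is named beyond sodium pentobarbital anaesthesia before death in both ages; the labels state neither strain nor sex. The series title sets the question as which genes go with vulnerability of the hypothalamus in aged mice with cognitive decline.

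Wnt proteins are secreted, lipid-modified signals that bind a Frizzled receptor together with the coreceptor Lrp5 or Lrp6. In the canonical branch this stops the destruction of beta-catenin, which then acts with the DNA-binding factors Lef1, Tcf7, Tcf7l1 and Tcf7l2 on target genes such as Axin2. Sfrp proteins, Frzb and Wif1 bind ligands outside the cell, while Dkk1, Dkk2 and Dkk4 bind the coreceptors. In adult brain the pathway is known for maintaining the blood-brain barrier, for oligodendrocyte differentiation and for synapse upkeep, and Tcf7l2 and Lef1 are well known as markers of thalamic neurons.

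Each library held 17208291 to 18884403 counted reads, of which 8894 to 11166 fell on the 42 genes. The hypothalamic peptide genes Pmch and Hcrt were abundant in each library, at 442 to 740 FPKM (reads scaled to gene length and library total) and 178 to 416 FPKM. Others were low, such as Agrp at 0.401 to 6.32 FPKM. Reads of 4 Y-linked genes summed to 3394 to 3617 in each aged library and to 24 to 32 in each young library, so age and sex cannot be told apart in any value below. Pairs of libraries of one age were further apart than sampling of reads allows (ratio of chi-square to its degrees of freedom, 3.91 to 11.65). Pairs with aged replicate 2 or young replicate 2 were the most unlike (7.73 to 11.65). Several results that rest on either are given with and without it. These are whole pieces of tissue, in which fewer cells of a type and less RNA per cell cannot be told apart.

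Of the 42 members, 35 had enough reads to test and 7 did not. In edgeR's quasi-likelihood test with Benjamini-Hochberg adjustment over all 14702 tested genes, 4 members were lower in aged hypothalamus and 0 were higher. The 4 were the receptors Fzd10 and Fzd6, the antagonist Dkk2 and the transcription factor Tcf7l2. They make 11.4% of the tested members, where 6.86% of all tested genes passed (3.64% lower and 3.22% higher). Members were chosen with earlier results of these data known, so shares of members are descriptive. Unadjusted p was under 0.05 for 14 members, 11 of them lower and 3 higher, against 26.2% of all tested genes (13.7% lower and 12.6% higher). The age groups did not overlap on CPM (reads scaled to the TMM-adjusted library total) in 16 of 35 members, 13 lower and 3 higher, where 31.7% of all tested genes did not overlap (16.2% lower and 15.5% higher). The median log2 fold change was -0.14 over the tested members and 0.00 over all tested genes. The 4 calls depended on single libraries: without aged replicate 1, aged replicate 3 or young replicate 1, 0 members passed, and the share of all genes passing was then 1.64%, 1.01% and 1.77%. Without aged replicate 2, 7 members passed (3 higher and 4 lower, against 6.08% and 4.94% of all genes and 11% in either direction), and without young replicate 2, only Fzd10 passed (against 3.9% of all genes). Without young replicate 3, Fzd10, Tcf7l2, Lef1 and Wnt9b passed, all lower (against 2.67% of all genes). In the fits named below, the share of all genes that passed was 7.3% with total count scaling, 6.84% with RLE scaling, 7.12% with upper quartile scaling, 5.88% with no filter and 7.37% with a stricter filter. It was 8.99% in DESeq2, 6.35% in limma-voom, 6.18% and 6.29% in limma-trend with FPKM pseudocounts of 1 and 0.1, 7.47% with robust estimation, 5.05% with the length trend removed and 8.09% with the replicate number as a block. At an adjusted p under 0.1 it was 14.9%.

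**Figure D1:**
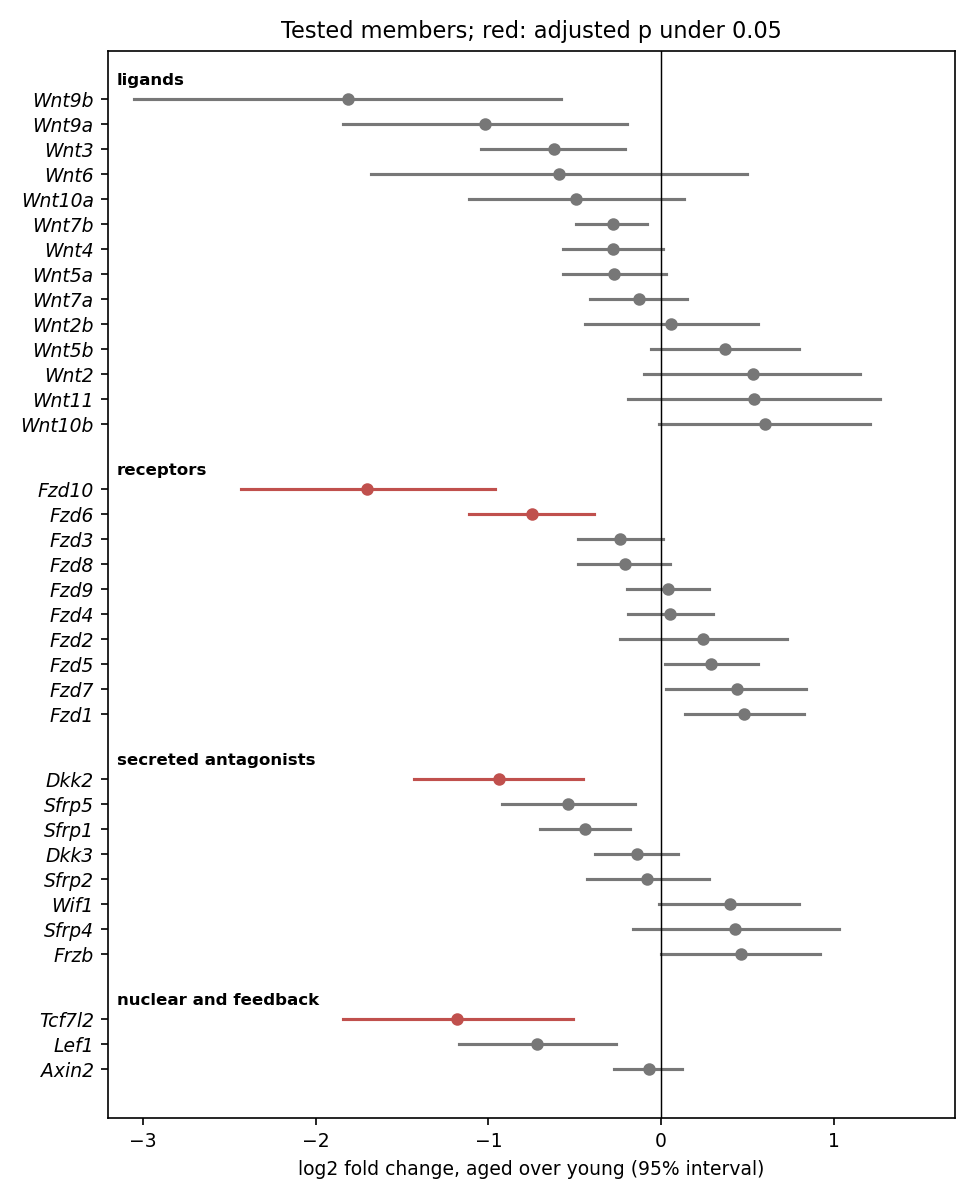
Log2 fold change of aged over young for the 35 tested members, grouped by role, with 95% intervals from edgeR; red marks an adjusted p under 0.05. The 4 red members (Fzd10, Fzd6, Dkk2 and Tcf7l2) lie left of 0, while Axin2 sits close to 0 with an interval from -0.27 to 0.12.

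The stretch just before the gene start is shown for 3 of the 4 genes that fell, because they differ widely in CpG content. Sequences are from RefSeq on GRCm38.p6, a build other than the GRCm39 named for the deposited tables, so positions were not joined with the counts. A window was found for 30 of the 42 members and not for Fzd6. Each line gives the 250 bases before the annotated start, 5′ to 3′ on the plus strand, with every CpG dinucleotide in capitals. The windows are chr5:128600856-128601105 for Fzd10, chr19:55741560-55741809 for Tcf7l2 (the first of its 2 annotated starts) and chr3:132085042-132085291 for Dkk2.
Fzd10: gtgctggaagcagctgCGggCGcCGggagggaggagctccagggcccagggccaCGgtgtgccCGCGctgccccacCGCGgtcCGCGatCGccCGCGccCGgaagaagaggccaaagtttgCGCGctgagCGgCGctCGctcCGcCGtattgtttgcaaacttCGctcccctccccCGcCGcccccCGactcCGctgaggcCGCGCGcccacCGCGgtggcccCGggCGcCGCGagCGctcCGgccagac
Tcf7l2: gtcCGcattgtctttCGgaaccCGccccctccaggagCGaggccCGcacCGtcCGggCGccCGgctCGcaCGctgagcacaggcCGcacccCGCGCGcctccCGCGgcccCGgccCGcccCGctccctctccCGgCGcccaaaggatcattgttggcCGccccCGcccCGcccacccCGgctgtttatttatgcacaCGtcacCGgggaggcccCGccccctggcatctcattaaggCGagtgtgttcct
Dkk2: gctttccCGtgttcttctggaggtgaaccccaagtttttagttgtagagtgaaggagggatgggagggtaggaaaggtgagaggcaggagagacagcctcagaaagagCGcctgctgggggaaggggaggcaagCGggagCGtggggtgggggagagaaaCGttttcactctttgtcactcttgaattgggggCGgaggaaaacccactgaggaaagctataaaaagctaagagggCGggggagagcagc
The Fzd10 window held 37 CpGs and the printed Tcf7l2 window 30, more than 97.8% and 94.1% of all 32851 promoter windows. The window of the other Tcf7l2 start held 7, more than 53.7% of all windows. The Dkk2 window held 7, close to the median of 6 over all windows, and the median over the 37 member windows was 20. The letters CTTTGAT, the core read by Tcf and Lef factors, were searched on both strands (ATCAAAG on the other). They occurred in 2 of 37 member windows (5.41%), those of Wnt11 and of one Wnt5b start, against 3.21% of all windows, and in none of the 3 windows printed.

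Among the receptors, Fzd10 and Fzd6 fell and 8 of 10 did not pass (3.64% of all tested genes passed as lower). All 10 Frizzled genes were tested. Fzd10, a receptor of restricted expression, stood at 0.357, 0.372 and 0.408 FPKM in aged replicates 1 to 3 and at 1.27, 1.66 and 0.691 FPKM in young replicates 1 to 3. Every aged library was below every young one, and the young libraries spread far more than the aged ones. It rested on few reads, 19 to 21 per aged library and 37 to 88 per young library. On counts, Fzd10 was lower in aged by 3.24-fold (log2 fold change -1.70 ± 0.33 SE, edgeR adjusted p = 0.0204). Without young replicate 2 the log2 fold change was -1.38 (edgeR adjusted p = 0.0472). The call was lost without aged replicate 1, aged replicate 3 or young replicate 1 (edgeR adjusted p = 0.0713, 0.0744 and 0.0672), and held in 15 of 18 alternatives in all.

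Fzd6, a receptor known for planar cell polarity, stood at 1.20, 1.73 and 1.41 FPKM in aged replicates 1 to 3 and at 2.76, 2.23 and 2.17 FPKM in young replicates 1 to 3. The groups did not overlap, with aged replicate 2 closest to the young range. On counts Fzd6 was lower in aged by 1.68-fold (log2 fold change -0.75 ± 0.16 SE, edgeR adjusted p = 0.0280). The call held in 13 of 18 alternatives. It was lost without each single library other than aged replicate 2, with edgeR adjusted p from 0.0514 to 0.104, and without aged replicate 2 the log2 fold change was -0.88 (edgeR adjusted p = 0.0144).

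The most abundant receptor RNAs per length did not pass. Fzd3, which acts in axon guidance, led at 7.54, 7.86 and 8.34 FPKM in aged and 7.71, 10.8 and 8.89 FPKM in young libraries, and the groups overlapped. Its log2 fold change was -0.24 ± 0.11 SE (edgeR adjusted p = 0.206), or -0.09 without young replicate 2. Fzd1 followed, at 6.71, 5.29 and 7.87 FPKM in aged and 4.20, 5.43 and 4.26 FPKM in young libraries. Its aged levels were above the young ones except in aged replicate 2, which was below young replicate 2. The Fzd1 log2 fold change was 0.48 ± 0.16 SE (edgeR adjusted p = 0.0874). It passed in DESeq2, where 4.05% of all genes passed as higher, and without aged replicate 2 (log2 fold change 0.64, edgeR adjusted p = 0.0200). Fzd2 stood at 6.56, 3.27 and 5.48 FPKM in aged and 4.75, 3.84 and 4.08 FPKM in young libraries, with its lowest value in aged replicate 2. Its log2 fold change of 0.24 ± 0.22 SE was 0.02 without aged replicate 1 and 0.50 without aged replicate 2. Without aged replicate 2, Fzd2 and Fzd7 also passed as higher (edgeR adjusted p = 0.0375 and 0.0334), while with all libraries their edgeR adjusted p was 0.521 and 0.165.

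Fzd7 was at 2.22, 1.5 and 2.18 FPKM in aged and 1.19, 1.43 and 1.65 FPKM in young libraries, again with aged replicate 2 inside the young range. Fzd5 was at 1.93, 2.23 and 2.24 FPKM in aged and 1.44, 1.91 and 1.77 FPKM in young libraries. On CPM the Fzd5 groups overlapped, and its log2 fold change was 0.29 ± 0.12 SE (edgeR adjusted p = 0.159). Fzd4, the receptor for Norrin in vessels, Fzd8 and Fzd9 had log2 fold changes of 0.05, -0.21 and 0.04. Their 95% intervals were -0.19 to 0.30, -0.48 to 0.05 and -0.20 to 0.28. As shares of summed Frizzled FPKM, Fzd10 made 1.12% ± 0.0990 in aged and 3.61% ± 1.30 in young libraries (SD, n = 3 each). Fzd6 made 4.32% ± 1.19 and 7.25% ± 1.36, and Fzd1 19.3% ± 2.04 and 13.9% ± 1.08. The sum itself was 34.0 ± 3.22 FPKM in aged and 33.1 ± 2.34 FPKM in young libraries, within the spread.

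**Figure D2:**
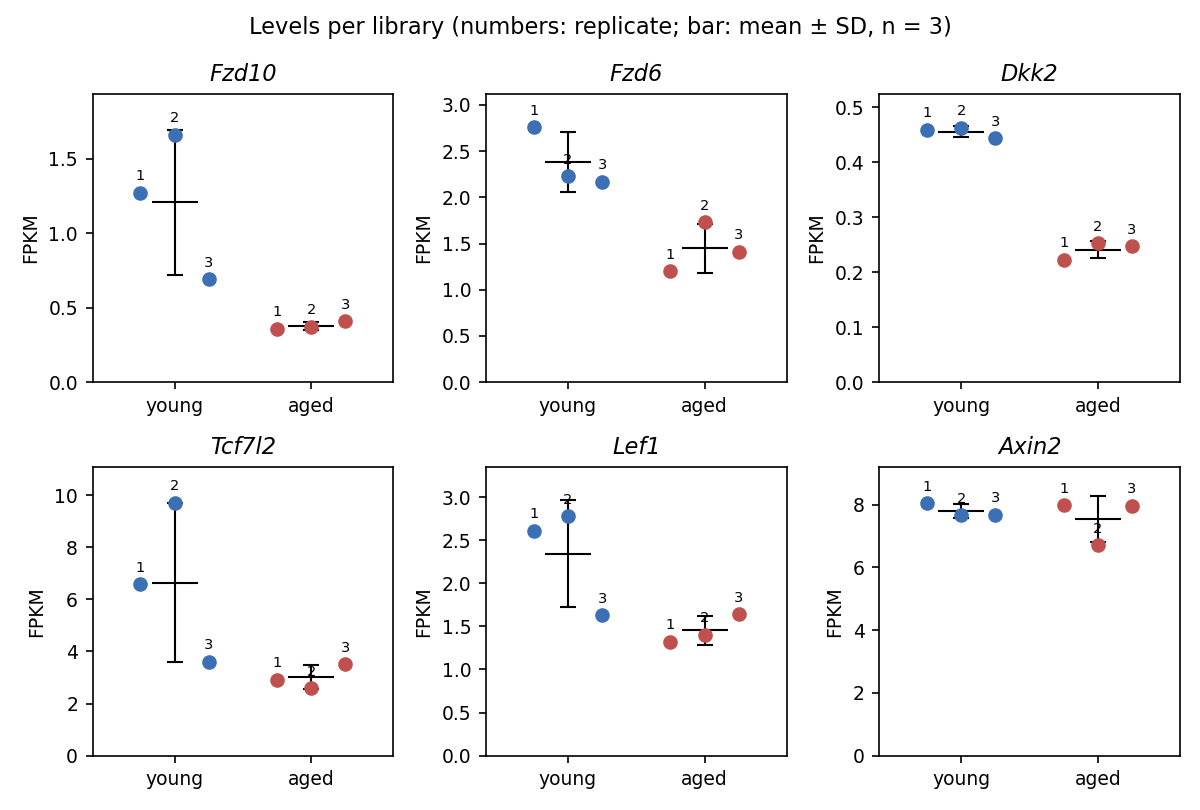
FPKM in each library for the 4 genes that fell, Lef1 and Axin2, with young libraries in blue, aged libraries in red, replicate numbers beside the points and bars for the mean ± SD (n = 3). Dkk2 is tight in both groups, on few reads. Fzd10 and Tcf7l2 spread widely among young libraries with replicate 2 highest and replicate 3 lowest, and Axin2 overlaps.

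Among the 19 ligands, 14 were tested and 0 passed. By edgeR's unadjusted p, 4 of the 14 were under 0.05, all lower in aged, where 26.2% of all tested genes were (13.7% lower). In DESeq2, 1 ligand, Wnt9b, passed, and in limma-voom and limma-trend on FPKM 0 did. Wnt7b and Wnt7a, which act on brain endothelium through a receptor complex with Reck and Adgra2, were the most abundant ligand RNAs per length. Wnt7b stood at 7.31, 6.80 and 7.91 FPKM in aged and 9.47, 8.65 and 8.11 FPKM in young libraries. The groups did not overlap, by a small margin, and the log2 fold change was -0.28 ± 0.09 SE (edgeR adjusted p = 0.0893). Wnt7a stood at 4.72, 3.48 and 3.87 FPKM in aged and 4.23, 4.54 and 4.13 FPKM in young libraries, with overlap. Wnt7b made 33.5% ± 2.06 of summed ligand FPKM in aged and 34.4% ± 2.99 in young libraries, and Wnt7a 18.3% ± 2.72 and 16.9% ± 0.677 (SD, n = 3 each). The summed ligand level was 21.9 ± 0.345 FPKM in aged and 25.5 ± 2.14 FPKM in young libraries.

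Wnt3, a ligand of the canonical branch, stood at 1.91, 1.57 and 1.78 FPKM in aged and 2.64, 3.11 and 2.18 FPKM in young libraries. The groups did not overlap, and the log2 fold change was -0.62 ± 0.19 SE (edgeR adjusted p = 0.0720), or -0.48 without young replicate 2. Wnt9b, its neighbour on the chromosome, stood at 0.0979, 0.157 and 0.142 FPKM in aged and 0.342, 0.855 and 0.175 FPKM in young libraries. Young replicate 2 was far above the rest, with 87 reads against 10 to 34 in the other 5 libraries. The Wnt9b log2 fold change was -1.81 ± 0.55 SE (edgeR adjusted p = 0.0766), and -0.97 without young replicate 2. The RefSeq spans of Wnt3 and Wnt9b overlap on opposite strands, and their exons were not compared. No source used here gives the strand setting of the counting. Whether reads of one were counted for the other was not tested. Wnt9a stood at 0.595, 0.592 and 0.769 FPKM in aged and 0.899, 2.16 and 0.821 FPKM in young libraries, again with young replicate 2 highest. Its log2 fold change of -1.02 ± 0.37 SE (edgeR adjusted p = 0.117) was -0.42 without that library.

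The other 9 tested ligands had log2 fold changes from -0.59 (Wnt6) to 0.60 (Wnt10b). Wnt4, Wnt5a, Wnt6 and Wnt10a were below 0, and Wnt2, Wnt2b, Wnt5b, Wnt10b and Wnt11 above 0. For Wnt5a, the standard ligand of the planar polarity branch, the 95% interval was -0.57 to 0.03, and for Wnt2b -0.44 to 0.56. Too few reads were counted to test Wnt1 (2 reads over the 6 libraries), Wnt3a (4), Wnt8a (4), Wnt16 (23) and Wnt8b (43). The filter on low counts left these 5 out of the main fit. In the fit with no filter they were tested, and the members that passed were the same 4 as in the main fit. At this depth a difference in them would be hard to detect.

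**Figure D3:**
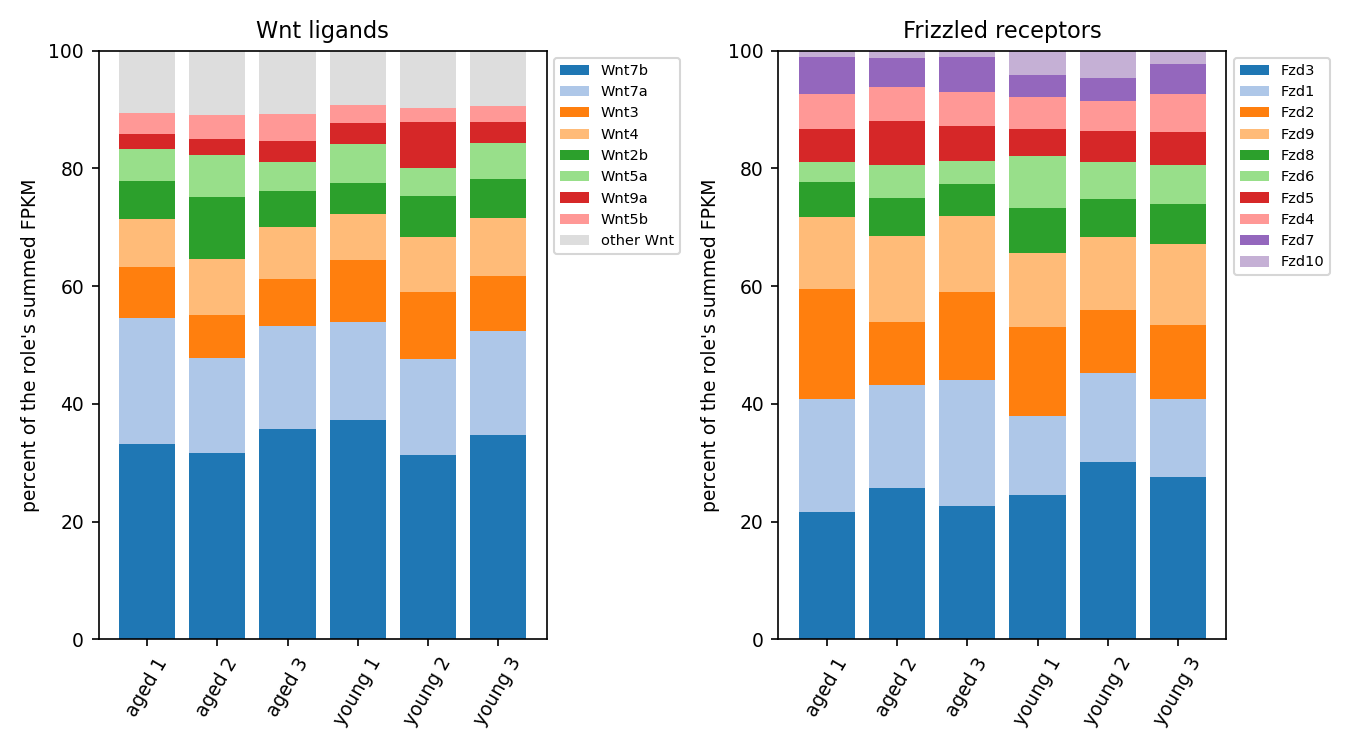
Share of each gene in the summed FPKM of the 19 Wnt ligands (left; the 8 most abundant are drawn singly) and of the 10 Frizzled receptors (right), 1 bar per library. Wnt7b and Wnt7a fill the lower part of every ligand bar, and Fzd10 is thinner in each aged bar than in any young bar.

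Of the secreted antagonists, Dkk2 fell and 7 of the 8 tested did not pass (3.64% of all tested genes passed as lower). Dkk2, which binds Lrp5 and Lrp6, stood at 0.223, 0.253 and 0.247 FPKM in aged and 0.459, 0.463 and 0.444 FPKM in young libraries. Both groups were tight and far apart, on 15 to 18 reads per aged and 30 to 31 reads per young library. On so few reads, this tightness says little about the spread between mice. The difference was 1.92-fold (log2 fold change -0.94 ± 0.22 SE, edgeR adjusted p = 0.0352). Leaving out single libraries kept the log2 fold change between -0.96 and -0.89, but the call held only without aged replicate 2 (edgeR adjusted p = 0.0468; 0.0833 to 0.121 without any other). It was also lost in DESeq2 and with the replicate number as a block, and held in 11 of 18 alternatives.

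Dkk3, a divergent family member, was by far the most abundant antagonist RNA per length. It stood at 24.9, 25.7 and 24.0 FPKM in aged and 22.9, 31.7 and 25.7 FPKM in young libraries, with overlap and a 95% interval of -0.38 to 0.10 for the log2 fold change. Sfrp5, a ligand-binding antagonist, stood at 10.9, 9.39 and 12.5 FPKM in aged and 20.0, 13.8 and 12.9 FPKM in young libraries. Aged replicate 3 came close to young replicate 3, and the log2 fold change was -0.54 ± 0.17 SE (edgeR adjusted p = 0.0877), or -0.30 without young replicate 1. Sfrp5 passed in DESeq2, where 4.93% of all genes passed as lower. Its relative Sfrp1 stood at 1.54, 1.79 and 1.59 FPKM in aged and 2.03, 2.33 and 2.19 FPKM in young libraries. The Sfrp1 groups did not overlap, and its log2 fold change of -0.44 ± 0.12 SE just missed the threshold (edgeR adjusted p = 0.0511), which it passed with robust estimation and without aged replicate 2. Sfrp2 stood at 3.28, 4.15 and 2.99 FPKM in aged and 4.12, 3.38 and 3.29 FPKM in young libraries, with overlap (log2 fold change -0.08 ± 0.16 SE).

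Frzb, Wif1 and Sfrp4 had log2 fold changes above 0 (0.46, 0.40 and 0.43) and did not pass (edgeR adjusted p = 0.193, 0.196 and 0.334). Frzb was highest in aged replicate 2, at 3.32 FPKM, against 1.48 to 2.25 FPKM in the other 5 libraries. Of 10 tested marker genes of tanycytes, ventricle-lining glia of the hypothalamus, 3 were higher and 1 was lower (against 3.22% and 3.64% of all tested genes). Their summed level overlapped between the ages, and was 36.9 to 45.2 FPKM in aged and 19.7 to 37.2 FPKM in young libraries. The part of this in the Frzb values was not tested. Dkk1, with 2 reads over all libraries, and Dkk4, with 1, were too low to test.

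Of the nuclear and feedback genes, Tcf7l2 fell, and Lef1 and Axin2 did not pass. Tcf7l2, a DNA-binding partner of beta-catenin, stood at 2.92, 2.59 and 3.51 FPKM in aged and 6.58, 9.71 and 3.61 FPKM in young libraries. Young replicate 3 lay just above aged replicate 3, so the groups only just failed to overlap. On counts it was lower in aged by 2.26-fold (log2 fold change -1.18 ± 0.30 SE, edgeR adjusted p = 0.0464). Without young replicate 2 the log2 fold change was -0.78 (edgeR adjusted p = 0.0951). The call held in 6 of 18 alternatives, which were the 3 other scalings, both other filters on low counts and leaving out young replicate 3 (log2 fold change -1.47). It was lost in DESeq2, limma-voom and limma-trend.

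Lef1, the related factor, stood at 1.32, 1.40 and 1.64 FPKM in aged and 2.61, 2.78 and 1.63 FPKM in young libraries. Young replicate 3 fell inside the aged range, and the log2 fold change was -0.72 ± 0.20 SE (edgeR adjusted p = 0.0626). Lef1 passed in DESeq2 and without young replicate 3 (edgeR adjusted p = 0.0206). Without young replicate 2, its highest library, the log2 fold change was -0.56 (edgeR adjusted p = 0.154). Axin2, a scaffold of the complex that destroys beta-catenin and a widely used readout of canonical signalling, stood at 7.98, 6.71 and 7.97 FPKM in aged and 8.04, 7.66 and 7.68 FPKM in young libraries. These overlapped, and the 95% interval of its log2 fold change (-0.27 to 0.12) spans 0.

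Young replicate 2 was the highest of the 6 libraries for 12 of 35 tested members (34.3%, against 20.3% of all tested genes), among them Tcf7l2, Lef1, Fzd10, Wnt3, Wnt9a and Wnt9b. It was highest for 12 of 15 genes in the list of thalamus and habenula markers and for 9 of 13 tested markers of cortex, hippocampus and amygdala. The full order of Tcf7l2 (young replicate 2, then 1, then 3, all above the aged libraries) was seen in 7 of 35 members, 6 of 15 thalamus and habenula genes, 1 of 13 cortical genes and 614 of 14702 tested genes. Shox2, a thalamic transcription factor, stood at 0.281, 0.204 and 0.414 FPKM in aged and 1.07, 2.70 and 0.441 FPKM in young libraries. Ramp3, a receptor-modifying protein, stood at 3.34, 3.23 and 4.04 FPKM in aged and 9.35, 18.3 and 3.24 FPKM in young libraries. These 2 genes were chosen after their values were seen, and neither passed (edgeR adjusted p = 0.0511 and 0.0825). In both, young replicate 2 was highest, young replicate 1 next, and young replicate 3 near the aged libraries. Other genes of the same list did not show this order, among them Calb2, Gbx2, Zic1, Zic4 and Tac1.

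Of all tested genes, 3.64% passed as lower and 3.22% as higher, the shares beside which the marker counts here stand. Over the whole thalamus and habenula list, 2 of 15 genes were lower (Plekhg1 and Synpo2) and 1 was higher (Tac1). None of the 15 was at 0 in the table, and the summed level was 296 to 350 FPKM in aged and 330 to 392 FPKM in young libraries, mostly from Calb2 and Slc17a6. In the list for cortex, hippocampus and amygdala, 2 of 13 tested genes were lower (Neurod6 and Cux2), and the summed level was 49.7 to 58.2 FPKM in aged libraries and 42.4, 148 and 77.1 FPKM in young replicates 1 to 3. Slc17a7, a glutamate transporter of cortical neurons, stood at 57.8 FPKM in young replicate 2 and at 3.27 to 20.0 FPKM in the other 5 libraries. In the dopamine neuron list, 4 of 8 tested genes were lower, among them Slc6a3 (log2 fold change -2.63) and En1 (-2.61). Young replicate 3 was the highest library for 7 of 8, against 1562 of 14702 tested genes. The summed level of this list was 75.6 to 93.7 FPKM in aged and 93.2 to 175 FPKM in young libraries. Tcf7l2 is also known from newly formed oligodendrocytes. Of 11 genes in that list 6 were lower, and the summed level was 116 to 132 FPKM in aged and 132 to 146 FPKM in young libraries. The part of any of these cell populations in the Tcf7l2, Lef1, Fzd10 and Wnt9b values was not tested.

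**Figure D4:**
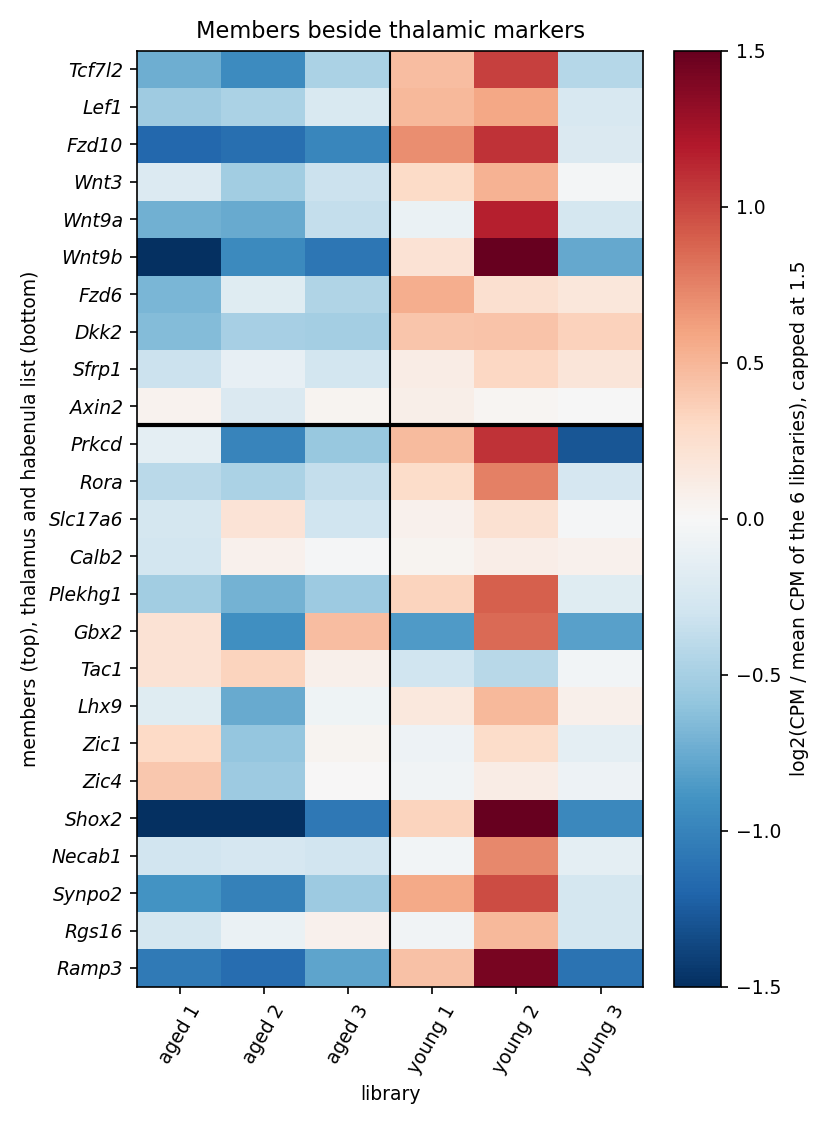
Log2 of CPM over the mean of the 6 libraries for 10 members (above the line) and the 15 genes of the thalamus and habenula list (below), 1 column per library, colours capped at 1.5. Young replicate 2 is reddest for Tcf7l2, Lef1, Fzd10, Wnt3, Wnt9a and Wnt9b and for 12 of the 15 list genes, while Fzd6 and Dkk2 are red in all 3 young libraries and Axin2 is pale throughout.

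Outside the families, 101 further genes of the pathway were taken from 8 lists by role. Of 97 tested, 10 were lower in aged and 1 was higher (11.3%, against 6.86% of all tested genes, 3.64% lower and 3.22% higher). The lists were chosen with earlier results of these data known, so these shares are descriptive. The median log2 fold change was -0.10, and 65 of 97 values were below 0. Removing the trend of counts on gene length left 2 lower and 2 higher, where 2.42% and 2.63% of all genes passed.

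Apcdd1, a membrane-bound Wnt inhibitor of brain endothelium, showed the largest change of these genes. It stood at 3.59, 4.57 and 3.35 FPKM in aged and 9.87, 8.10 and 7.15 FPKM in young libraries. The groups were well apart, and the log2 fold change was -1.15 ± 0.14 SE (edgeR adjusted p = 0.00455), a call that held in 18 of 18 alternatives. In the endothelial list, 3 of 11 genes were lower (Cldn5, Kdr and Tek) and Slc2a1 was higher (against 3.64% and 3.22% of all tested genes). Its summed level was 160 to 172 FPKM in aged and 131 to 153 FPKM in young libraries, with no gene at 0. That sum was higher in aged, while the median log2 fold change of the list was -0.24. The part of endothelial RNA in the Apcdd1 value was not tested.

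In the planar polarity branch, 3 of 15 genes fell and 0 rose (against 3.64% and 3.22% of all tested genes). Vangl1 and Vangl2 are core membrane proteins of this branch, and Vangl1 stood at 1.42, 1.51 and 1.26 FPKM in aged and 2.21, 2.48 and 2.0 FPKM in young libraries. Its groups did not overlap, its log2 fold change was -0.71 ± 0.12 SE (edgeR adjusted p = 0.0136), and it lost the call only without aged replicate 3. Vangl2 and the cadherin Celsr2 both fell by 0.36 on the log2 scale (edgeR adjusted p = 0.0473 and 0.0193). With the length trend removed both lost the call, at log2 fold changes of -0.28 and -0.27. Celsr2 held in 14 of 18 alternatives and Vangl2 in 7, which also lost the call under the replicate block (edgeR adjusted p = 0.052). Among ligand processing genes, Notum, an enzyme that strips the lipid from Wnt proteins, fell by 0.86 on the log2 scale. It lay at the threshold (edgeR adjusted p = 0.05 after rounding), and its call held in 8 of 18 alternatives.

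The counts in the next 3 lists stand beside 3.64% of all tested genes that passed as lower and 3.22% as higher. In the cytoplasmic relay, 2 of 20 genes fell. These were Gsk3b, the kinase that marks beta-catenin for destruction (log2 fold change -0.37 ± 0.08 SE), and Apc2, part of the same complex (-0.28 ± 0.07 SE). Of 16 nuclear partners, the coactivator Bcl9 fell by 0.31 on the log2 scale and the corepressor Tle1 rose by 0.37 ± 0.10 SE. Of 11 tested transcriptional targets, Jag1, a Notch ligand, and Nrcam, an adhesion molecule, fell by 0.53 and 0.39 on the log2 scale. With the length trend removed, Gsk3b, Apc2, Bcl9, Jag1 and Nrcam lost the call at log2 fold changes of -0.29, -0.20, -0.21, -0.43 and -0.29. Over all 18 alternatives the call held in 13 for Gsk3b, 11 for Bcl9 and for Jag1, 9 for Nrcam and 6 for Apc2. Tle1 held in 9 of 18, and was lost in limma-voom, both limma-trend fits, the replicate block (edgeR adjusted p = 0.0536) and without each library other than aged replicate 2.

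Coreceptors and R-spondin genes gave 0 calls in edgeR. Unadjusted p was under 0.05 for 26.2% of all tested genes. It was so for 1 of 8 coreceptors and alternative receptors and for 2 of 9 genes of R-spondin signalling and receptor turnover. Lgr6, a receptor for R-spondins, had the smallest adjusted p of these, with a log2 fold change of -0.53 ± 0.14 SE (edgeR adjusted p = 0.0505), and passed in 5 of 18 alternatives. Lgr4, its relative, had 0.22 ± 0.09 SE (edgeR adjusted p = 0.175) and passed without aged replicate 2. Ror2, a receptor kinase for Wnt5a, had -0.50 ± 0.20 SE (edgeR adjusted p = 0.156) and Ryk, another receptor of the kinase type, 0.36 ± 0.20 SE (edgeR adjusted p = 0.285). Neither passed in any of 18 alternatives, and without young replicate 3 the Ryk value was 0.12.

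**Figure D5:**
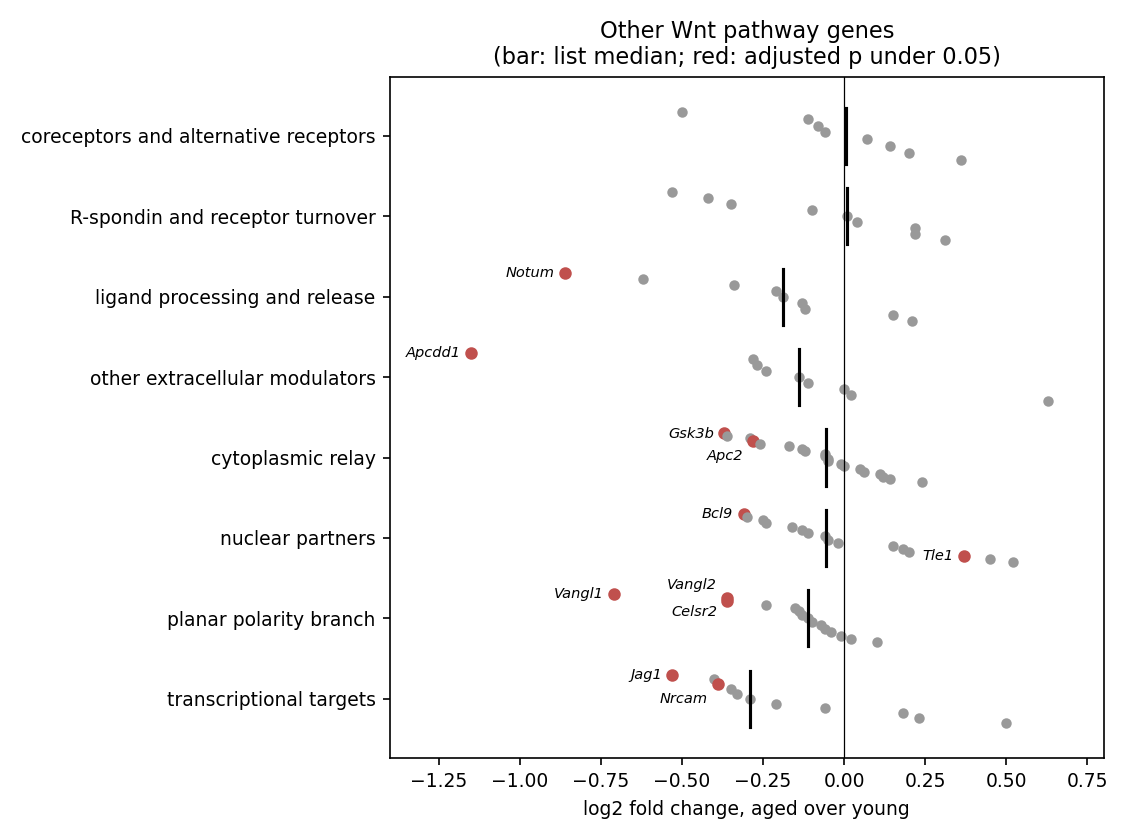
Log2 fold change of aged over young for the 97 tested genes of the 8 pathway lists; each point is a gene, black bars are list medians, and red points passed at an adjusted p under 0.05. Of the 11 named genes 10 lie left of 0 and Tle1 lies right, and the medians run from -0.29 (transcriptional targets) to 0.01.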

How the data were processed

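RNA of 6 hypothalamus samples was measured by sequencing of libraries that keep the strand, per the labels' protocols; each library is a separate mouse, per the design text. The authors deposited whole-number read counts per gene with no normalization, and a table of FPKM for the same genes. Per the submitters' processing notes, the build was GRCm39 and the tools were HTSeq, HISAT2, Trimmomatic, DESeq and Cufflinks, with no version or role; no source used here gives the annotation release, the strand setting or how reads shared by similar genes were counted. The deposited FPKM equalled counts over gene length and library total for 18228 of 18228 genes (relative tolerance 1e-06).

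The counts were tested with edgeR 4.0.16 (R 4.3.3): filterByExpr (minimum count 10, minimum total 15) left 14702 genes, TMM factors scaled the libraries, and the quasi-likelihood test compared aged with young with no covariate. The threshold was 0.05 on p-values adjusted over all tested genes by Benjamini-Hochberg. SE and 95% intervals follow from the test. Levels are the deposited FPKM; overlap of groups was read on TMM-scaled CPM. P-values measure the spread between these mice.

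Values in each library are given for members that passed, had an unadjusted p under 0.05 or were among the 3 most abundant of their role. Pathway genes that passed are named, or the 2 with the smallest adjusted p in a list with none. Members and lists were chosen with earlier results of these data known. Alternatives were other scalings, filters, tools (DESeq2 1.42.0, limma 3.58.1 with voom, and limma-trend on log2 FPKM with pseudocounts of 1 and 0.1), robust estimation, removal of the gene length trend, the replicate number as a block, a threshold of 0.1 and leaving out each library. The fits were also run on simulated counts, drawn for each gene on its own. These hold no deviation shared by many genes of a library, so they do not bear on such deviations here.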

Additional observations from a re-analysis of the deposited data

How the results depend on the processing

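Of the 4 members that fell, all passed under total count, RLE and upper quartile scaling and both other filters on low counts, and 3 of them passed in limma-voom, limma-trend and with the length trend removed. DESeq2 gave 1 higher member and 5 lower, of which 2 were among the 4. At an adjusted p under 0.1, 1 member was higher and 10 lower, and of other pathway genes 3 were higher and 18 lower. Leaving out single libraries gave 0 to 3 higher and 0 to 4 lower members, and 0 to 5 higher and 1 to 10 lower pathway genes. Pathway genes higher in aged numbered 2 under total count scaling, upper quartile scaling, no filter, DESeq2 and length trend removal, and 0 in limma-voom and both limma-trend fits. Pathway genes lower in aged numbered 5 in both limma-trend fits and 2 with the length trend removed. The cause of these shifts was not tested, and fits that leave out a library also have fewer samples. Leaving out single libraries moved the log2 fold change of Axin2 from -0.11 to 0.02 (without aged replicate 2), that of Dkk3 from -0.23 to 0.02 (without young replicate 2) and that of Sfrp2 from -0.21 to 0.04 (without young replicate 1; 0.03 without aged replicate 3), none past the threshold.

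The labels give both ages replicate numbers 1 to 3, but these did not pair the libraries: correlations of same-numbered deviations from the group means were 0.095, 0.037 and -0.138. With the replicate number as a block, 3 members were lower and 0 higher, 2 of them among the 4 (Fzd10 and Fzd6) and Wnt9b besides; 11 pathway genes were lower, 9 of them among the 10, and Lgr6 and Apc besides; Vangl2 lost its call. The 1 higher pathway gene was Dvl1, and Tle1 lost its call (adjusted p = 0.0536).

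Depth limits the rarest members. Wnt9b had 10 to 87 reads per library, and its log2 fold change ran from -2.20 to -0.97 when single libraries were left out. Dkk2 had 15 to 31 reads per library, and its fold change moved little (-0.96 to -0.89) while its call was lost in 5 of 6 such fits. The 7 members left out of the main fit had at most 43 reads each over all libraries.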

Other observations

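Prl and Gh, hormones of the pituitary, stood at 160 and 76.3 FPKM in young replicate 3 and at 7.87 and 3.67 FPKM or less in the other 5 libraries. Of the T cell genes, Cd8a was highest in aged replicate 2, at 1.02 FPKM, against 0.111 FPKM or less elsewhere; Lef1, which T cells also express, stood at 1.40 FPKM there, inside its aged range. Summed pericyte and smooth muscle markers were 54.8 to 66.7 FPKM in aged and 75.9 to 87.6 FPKM in young libraries, and summed fibroblast and meningeal markers 31.5 to 33.0 and 38.0 to 41.4 FPKM. The sums of astrocyte markers were 826 to 1085 and 1110 to 1184 FPKM. These 3 lists did not overlap between ages. Neither did oligodendrocyte precursor markers, at 82.6 to 90.5 FPKM in aged and 103 to 108 FPKM in young libraries. The sums of microglia (205 to 230 and 168 to 172 FPKM) and endothelial markers (160 to 172 and 131 to 153 FPKM) were higher in aged, also without overlap. The median log2 fold change was 0.29 over the microglia list but -0.24 over the endothelial list. The higher endothelial sum therefore does not stand for the list as a whole. The part of any of these lists in the Fzd6 and Dkk2 values was not tested.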
